A study of Mus musculus with 2 samples.

Results

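The 8 genes Hmgn2, Hmgn3, Hmgn5, Hmga1, Hmga2, Hmgb1, Hmgb2 and Hmgb3 code for high mobility group proteins and were taken by name from the 38458 gene columns of the count tables; Hmgn1, the member of the family that the study follows, is given only as a comparator. The study asked how mouse embryonic stem cells without telomerase keep their telomeres by alternative lengthening of telomeres (ALT), and used single-cell RNA sequencing to ask whether expression changes were shared by all cells. Besides its work on Hmgn1, it reports that depletion of other high mobility group genes, not named in its main text, raised DNA damage at telomeres. Telomere length was hardly changed by it. Both groups were the Terc knock-out line DKO741, derived from E14 cells by successive targeting of the alleles of Terc, the RNA component of telomerase. PD100 (pre-ALT) and PD800 (post-ALT) are named for population doublings 100 and 800, although a label counts the same numbers as passages, and each had 1 library. Both groups lack Terc, no Terc+/+ library is part of the comparison, and 1 line stands for each group. The line was kept on fibroblast feeders, but the cells used for experiments were feeder-free.

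High mobility group proteins are abundant, small chromatin proteins that are not histones. HMGN proteins bind the nucleosome itself and compete with linker histone H1, HMGA proteins bind the minor groove of AT-rich DNA through short AT-hook motifs, and HMGB proteins carry paired HMG boxes that bend DNA. Embryonic stem cells are known for an open chromatin in which such proteins exchange quickly.

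The part of the HMGN proteins that contacts the nucleosome is their most conserved stretch, and it is shown here because it is what Hmgn2, Hmgn3 and Hmgn5 share with the comparator Hmgn1. The longest run of codons that translates alike in all 4 HMGN genes was 8 codons long and lies within the known nucleosome-binding domain. The coding bases are written 5′ to 3′ from the GENCODE M21 transcripts (GRCm38), all from genes on the minus strand, and capitals mark bases unlike Hmgn2.
Hmgn2: agaagatctgcgaggttgtctgct
Hmgn1: CgCCgCtcCgcgaggCtgtcGgcC
Hmgn3: agaCgGtcGgcCaggttgtcCgcG
Hmgn5: agaagatcAgcCCgACtgtctgct
These 24 bases lie at chr4:133966766-133966789 in Hmgn2, at chr16:96127311-96127334 in Hmgn1, at chr9:83114773-83114796 in Hmgn3 and at chrX:109010857-109010880 in Hmgn5, each within 1 coding exon. Hmgn1 differed from Hmgn2 at 8 of the 24 bases, Hmgn3 at 6 and Hmgn5 at 5. Over the whole coding sequence Hmgn2 shared 57.2% of aligned bases with Hmgn1 and 61.9% with Hmgn3. Hmgn5 stood apart by its length, with 1218 coding bases against 270 in Hmgn2. Hmgb1 shared 75.4% with Hmgb2 and 70.5% with Hmgb3.

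After cells with under 1000 UMIs (unique molecular identifiers, which count captured mRNA molecules) or over 20% mitochondrial UMIs were left out, 814 of 1291 barcodes remained in PD100 and 900 of 1666 in PD800. They held 1826233 UMIs in PD100 and 2580963 in PD800, a median of 2151 and 2701.5 UMIs per cell. Mitochondrial genes took a median of 1.23% of a cell's UMIs in PD100 and 4.42% in PD800. Terc, targeted in both groups, had 0 UMIs in both libraries. The counting limit for a count of 0 is 1.64 CPM (UMIs per 1000000 UMIs of the library) in PD100 and 1.16 CPM in PD800. Without a Terc+/+ library this 0 cannot serve as a check of the knock-out. The libraries shared 21 barcodes, 8 of them among the cells kept. All 12 stem cell markers had UMIs in both libraries, and they summed to 12225 CPM in PD100 and 12837 CPM in PD800. With 1 library per group, the passage number and the library preparation cannot be told apart, no test between groups was possible, and every interval below is a 95% interval for counting error only.

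The family did not move as a block between pre-ALT and post-ALT cells. Hmgn2 was higher in PD800 by 1.75-fold and Hmgb1 by 1.25-fold. Hmgn5 and Hmga1 were lower in PD800, at 0.593 and 0.642 times their PD100 level, and Hmgb2 was slightly lower, at 0.888 times. These directions are by library totals, by which the counting interval of the log2 ratio excluded 0 for each gene named so far. Relative to the median gene the interval lay above 0 for Hmgn2, Hmgn3, Hmgb1 and Hmgb2, and below 0 for no gene. Hmgb2 thus turned, and the lower values of Hmgn5 and Hmga1 were no longer distinguishable. Whether an interval excludes 0 depends on a gene's UMIs. The share of all genes by this rule is not given here, so it describes each gene alone. For Hmgn3, Hmga2 and Hmgb3 the counting interval by library totals included no difference. The comparator Hmgn1 was 3.18-fold higher (3.01 to 3.36), above all 8 genes.

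Against the whole transcriptome, 7 of the 8 genes were well counted, meaning 50 UMIs or more in PD100 and PD800 combined, and Hmga2 was not. Of the 6984 well-counted genes, 9.22% stood 2-fold or more above their PD100 level in PD800 and 16.9% stood 2-fold or more below it; of the 7 high mobility group genes, 0 were higher and 0 lower by that rule. The median log2 ratio of the 7 genes was 0.10, with a range of -0.75 to 0.81, and that of all 6984 genes was -0.34. The median gene was thus lower in PD800 when libraries were scaled to their totals, and the ratios of the 8 genes are given below both by library totals and relative to this median. Relative to it, 13.9% of all genes stood 2-fold or more higher and 7.79% 2-fold or more lower, and of the 7 genes 1 was higher, Hmgn2, and 0 were lower.

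**Figure D1:**
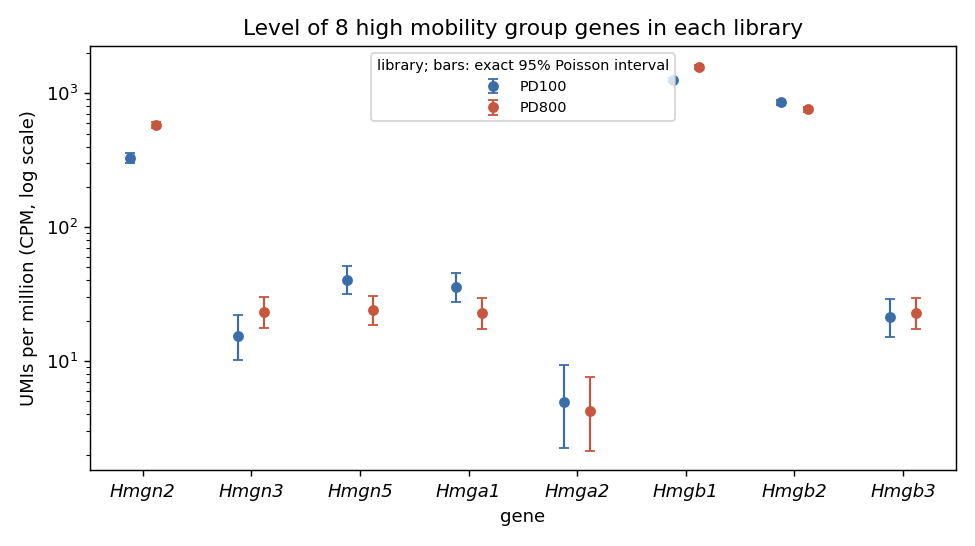
Level of each of the 8 genes in CPM (log scale) in the PD100 library (blue) and the PD800 library (red), with bars for the exact 95% Poisson interval. Hmgn2, Hmgb1 and Hmgb2 lie at 329 CPM or more in both libraries, and the other 5 genes lie at 40.5 CPM or less.

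Hmgn2 (chromosome 4, 133964738 to 133968650) codes for an HMGN protein that, like HMGN1, is found in most cell types. It had 600 UMIs in PD100 and 1486 in PD800, which is 329 CPM (303 to 356) against 576 CPM (547 to 606). These ranges do not overlap. The log2 ratio was 0.81 (0.67 to 0.95), higher than that of 88.5% of the well-counted genes, and 1.15 relative to the median gene. The difference between the log2 ratios of Hmgn1 and Hmgn2 was 0.86 (0.70 to 1.02), so the ratio of Hmgn1 was the larger beyond counting error.

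Hmgn3 (chromosome 9, 83109948 to 83146685) is the HMGN gene known best from brain and pancreatic islet cells. Its 28 UMIs in PD100 and 60 UMIs in PD800 gave 15.3 CPM (10.2 to 22.2) and 23.2 CPM (17.7 to 29.9). The ranges overlapped, and the log2 ratio of 0.60 (-0.07 to 1.30) was not distinguishable from 0 at this depth. Relative to the median gene it was 0.94 (0.27 to 1.64), an interval above 0.

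Hmgn5 (chromosome X, 109004534 to 109013404) codes for the HMGN protein with a long acidic tail that reaches linker histone. In contrast to Hmgn2, it was lower in PD800, at 40.5 CPM (31.8 to 50.9) from 74 UMIs before ALT and 24.0 CPM (18.4 to 30.8) from 62 UMIs after it. The log2 ratio was -0.75 (-1.27 to -0.25). Relative to the median gene it was -0.41 (-0.92 to 0.09), an interval that includes 0, so its distance from the median gene was not distinguishable at this depth. The log2 ratio of Hmgn2 exceeded that of Hmgn5 by 1.56 (1.04 to 2.09), whatever the scaling of the libraries.

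Hmga1 (chromosome 17, 27556497 to 27563674), which codes for an AT-hook protein typical of proliferating and embryonic cells, had 65 UMIs in PD100 and 59 in PD800. That makes 35.6 CPM (27.5 to 45.4) against 22.9 CPM (17.4 to 29.5), ranges that overlap narrowly. Its log2 ratio of PD800 over PD100 was -0.64 (-1.17 to -0.11), and -0.30 (-0.83 to 0.23) relative to the median gene. Like Hmgn5, Hmga1 was thus lower by total counts and not separable from the median gene.

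Hmga2 (chromosome 10, 120361275 to 120476469) is an AT-hook gene of the early embryo and a well-known target of let-7 microRNAs. It was near the limit of detection in both libraries, with 9 UMIs in 8 of 814 PD100 cells (4.93 CPM, 2.25 to 9.36) and 11 UMIs in 9 of 900 PD800 cells (4.26 CPM, 2.13 to 7.63). The interval of its log2 ratio of -0.21 ran from -1.62 to 1.24, past 2-fold on either side, so no difference was detectable at this depth. Relative to the median gene the sign was the other, at 0.13 (-1.28 to 1.58). No cell held more than 2 of these UMIs. Feeder fibroblasts can express Hmga2, and the 12 fibroblast markers summed to 237 UMIs in PD100 and 357 in PD800, of which 1 and 2 UMIs fell in the cells with an Hmga2 UMI. Of the 12 markers 10 had UMIs in PD100, all but Col1a1 and Lum, and 11 had UMIs in PD800, all but Dcn. Whether the Hmga2 UMIs came from feeders was not tested.

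Hmgb1 (chromosome 5, 149046702 to 149184489) codes for the most widely studied HMG-box protein, a DNA chaperone in the nucleus that is also known as an alarm signal outside cells. It had 2296 UMIs in PD100 and 4057 in PD800, or 1257 CPM (1206 to 1310) and 1572 CPM (1524 to 1621). The ranges do not overlap, and the log2 ratio was 0.32 (0.25 to 0.40). It was 0.66 (0.59 to 0.74) relative to the median gene.

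Hmgb2 (chromosome 8, 57511907 to 57515999) is the family member best known for its tie to dividing cells. It moved the other way by total counts, from 1560 UMIs (854 CPM, 812 to 898) before ALT to 1957 UMIs (758 CPM, 725 to 793) after it. By total counts its log2 ratio was -0.17 (-0.27 to -0.08), yet relative to the median gene it was 0.17 (0.07 to 0.27). Its direction therefore turned with the scaling. What did not depend on scaling was its relation to Hmgb1, since the log2 ratio of Hmgb1 exceeded that of Hmgb2 by 0.49 (0.37 to 0.62).

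Hmgb3 (chromosome X, 71555918 to 71560676), known from blood progenitors and the embryo, was the scarcest HMGB gene. Its 39 PD100 UMIs and 59 PD800 UMIs gave 21.4 CPM (15.2 to 29.2) and 22.9 CPM (17.4 to 29.5). The ranges overlapped almost fully, and the log2 ratio was 0.10 (-0.51 to 0.72), or 0.44 (-0.17 to 1.06) relative to the median gene.

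**Figure D2:**
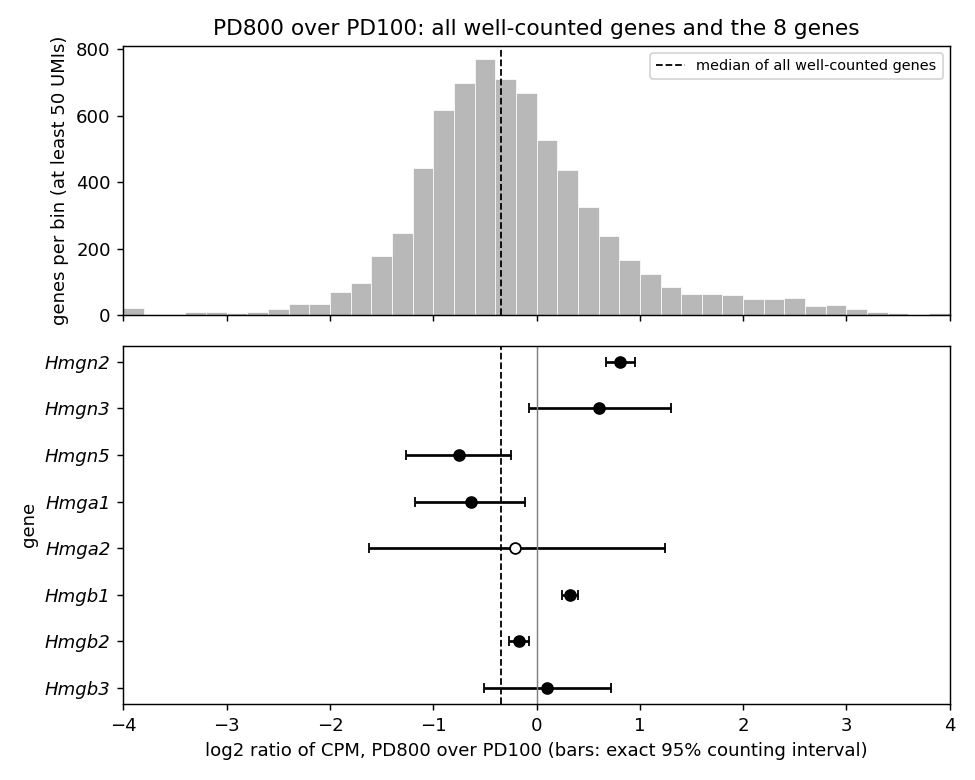
Top, number of well-counted genes in each bin of log2 of the PD800 CPM divided by the PD100 CPM, with values beyond 4 drawn in the outermost bins. Bottom, the log2 ratio of the 8 genes on the same axis with the exact 95% counting interval, where the open point is Hmga2, which has too few UMIs to be among the genes above, and the dashed line at -0.34 is the median of all counted genes; Hmgn2 lies farthest to the right and Hmgn5 farthest to the left.

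In order of the log2 ratio the genes ran Hmgn2, Hmgn3, Hmgb1, Hmgb3, Hmgb2, Hmga2, Hmga1 and Hmgn5. No gene in this order differed from its next neighbour beyond counting error. Of all 28 pairs, 13 had an interval of the difference that excluded 0 and 15 had one that included it. The make-up of the family changed accordingly. HMGN genes took 702 of the family's 4671 UMIs in PD100 (14.0% to 16.1%) and 1608 of 7751 in PD800, 20.7% (19.8 to 21.7), and Hmgn2 alone took 12.8% and 19.2%. HMGB genes took 83.4% and 78.4%, with Hmgb1 at 49.2% and 52.3% and Hmgb2 at 33.4% (32.0 to 34.8) and 25.2% (24.3 to 26.2). HMGA genes had the smallest share, 1.58% (1.25 to 1.98) before ALT and 0.903% (0.705 to 1.14) after it. Together the 8 genes stood at 2558 CPM before ALT and 3003 CPM after it, a log2 ratio of 0.23 (0.18 to 0.28).

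To compare levels between genes, CPM was divided by the length in kb of the longest coding transcript, although the method tags transcripts near an end. On this per-length scale Hmgb1 was the highest of the 8 in both libraries, with 443 CPM per kb in PD100 and 554 in PD800. Hmgb2 came next in PD100 at 325 (309 to 342) ahead of Hmgn2 at 260 (239 to 281). In PD800 the order was the opposite, with Hmgn2 at 455 (432 to 479) and Hmgb2 at 289 (276 to 302). This swap depended on the division by length, since by CPM Hmgb2 was above Hmgn2 in both libraries. The levels of Hmgn5, Hmga1, Hmgb3 and Hmgn3 ran from Hmgn3, the lowest of them at 11.0 CPM per kb (7.32 to 15.9), to Hmgn5 (16.5 to 26.3) in PD100, and from Hmga1 at 11.4 to Hmgn3 at 16.7 in PD800. Within this low tier the intervals of all neighbours in the order overlapped. Hmga2 was the lowest in both, at 1.29 and 1.12 CPM per kb.

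Whether a level was spread over all cells or held by a few was asked after thinning every cell at random to 1000 UMIs, so that both libraries had the same depth. Hmgn2 then had a UMI in 217 of 814 PD100 cells, 26.7% (23.6 to 29.8), and in 364 of 900 PD800 cells, 40.4% (37.2 to 43.7). Without thinning, at median depths of 2151 and 2701.5 UMIs, these shares were 46.6% and 71.0%. Hmgb1 had a UMI in 64.5% of PD100 cells (61.1 to 67.8) and in 74.3% of PD800 cells (71.3 to 77.2), or 82.6% and 93.1% without thinning. A single Poisson mean would give thinned shares of 28.6% in PD100 and 43.2% in PD800 for Hmgn2, and 71.5% and 79.2% for Hmgb1. A larger share in PD800 is what a higher mean gives by counting alone. The shares by themselves therefore do not show how the level was spread. The 10 cells with the most Hmgn2 UMIs held 8.17% of them in PD100 and 5.79% in PD800.

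For Hmgb2 the shares were 50.2% (46.8 to 53.7) and 52.2% (48.9 to 55.5), while the average over all possible draws was 52.0% and 50.2%. These shares went against each other and the first against the CPM, so no order is read from them; without thinning they were 72.9% and 78.2%. The remaining genes had a UMI in few cells at this depth. Hmgn5 was found in 4.05% of PD100 cells and 2.89% of PD800 cells, Hmga1 in 3.19% and 1.89%, Hmgn3 in 1.11% and 2.78%, Hmgb3 in 1.47% and 1.89%, and Hmga2 in 0.491% and 0.444%, with overlapping intervals for each. Their unthinned shares lay between 0.983% for Hmga2 in PD100 and 7.37% for Hmga1 in PD100. Because droplets also take up free RNA and no cells here were known to lack these genes, no background share could be set for them.

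**Figure D3:**
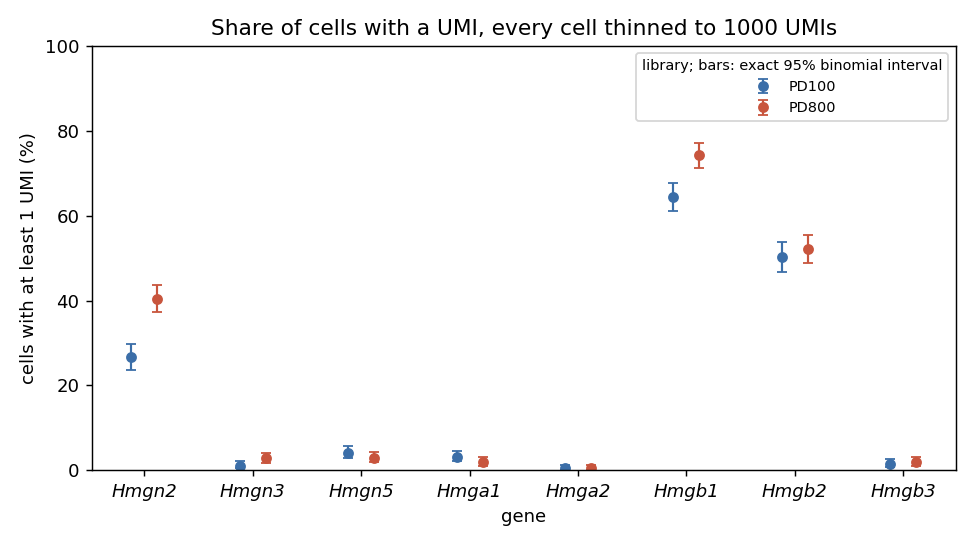
Percentage of cells with at least 1 UMI of each gene after every cell was thinned to 1000 UMIs, in PD100 (814 cells, blue) and PD800 (900 cells, red), with bars for the exact 95% binomial interval. The bars of Hmgn2 and Hmgb1 are apart between libraries, and those of the other 6 genes overlap.

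For Hmgn2 the spread between cells was close to that of counting alone. The variance of the thinned Hmgn2 count over its mean was 1.15 in PD100 and 1.14 in PD800, where a value of 1 is pure counting. It was 1.41 and 1.29 for Hmgb1. For Hmgb2 it was 1.34 in PD100 and 1.08 in PD800, and in PD800 only 2 of the 50 genes closest to it in mean level had a lower value, against 23 of 50 in PD100. A different random draw gave 1.40 and 1.18 for Hmgb2, the same order with a smaller gap, and without thinning it was 1.92 and 1.84. For Hmgn2 that draw gave 1.09 and 1.14, the opposite order, and the values without thinning were 1.37 and 1.73.

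Clusters were made without the high mobility group genes, so that cells could be compared in genes that had no part in grouping them. PD100 fell into 776 cells called stem cell-like from the marker list and 38 cells called endoderm-like, in which 17 of 17 extraembryonic endoderm markers had UMIs. All 17 also had UMIs in the 776 cells, so the name rests on their level and not on this count. Those markers summed to 18866 CPM in the 38 cells and 1855 CPM in the 776 cells. Of the 12 stem cell markers 10 had UMIs in the 38 cells, all but Fgf4 and Tcl1. They summed to 5992 CPM there and 12539 CPM in the 776 cells. PD800 split into a cluster of 453 cells and one of 447 cells, neither of them endoderm-like; the 17 markers summed to 666 CPM there, with Gata6 and Srgn at 0.

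Among the genes with UMIs in both PD100 cell types, Hmgb2 was lower in endoderm-like cells. It stood at 883 CPM (840 to 929) in stem cell-like cells and at 274 CPM (176 to 408) in endoderm-like cells, from 1536 and 24 UMIs. The log2 ratio of endoderm-like over stem cell-like cells was -1.69 (-2.34 to -1.11). At equal depth 5 of 38 endoderm-like cells had an Hmgb2 UMI, 13.2% (4.41 to 28.1), against 404 of 776 stem cell-like cells, 52.1% (48.5 to 55.6). The clusters were close in depth, with medians of 2314 and 2148.5 UMIs.

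Hmgn5 was at the other end, with 9 UMIs or 103 CPM (47.0 to 195) in endoderm-like cells and 65 UMIs or 37.4 CPM (28.9 to 47.7) in stem cell-like cells. The log2 ratio was 1.46 (0.27 to 2.47). At equal depth 3 of 38 endoderm-like cells had an Hmgn5 UMI, 7.89% (1.66 to 21.4). In stem cell-like cells it was 30 of 776, 3.87% (2.62 to 5.47), so the shares overlapped. Hmgn2 was 479 CPM (345 to 648) in endoderm-like cells and 321 CPM (295 to 349) in stem cell-like cells, with a log2 ratio of 0.58 (0.09 to 1.03). Its shares at equal depth, 28.9% (15.4 to 45.9) and 26.5% (23.5 to 29.8), overlapped. For Hmgn2 and Hmgn5 the difference in CPM was thus not seen in the shares of cells, and its interval covers counting error only. Hmgb1 did not differ beyond counting error, at 1381 CPM (1146 to 1650) and 1251 CPM (1199 to 1305), log2 ratio 0.14 (-0.13 to 0.41). Hmga1 and Hmgn3 had 0 UMIs in the 38 cells, which allows up to 34.2 CPM there by the limit of 3 counts. The exact interval reaches 42.1 CPM. The stem cell-like cells had 37.4 CPM of Hmga1 and 16.1 CPM of Hmgn3, both within it, so no difference is read for either gene. A share of cells of up to 7.89% is allowed by a count of 0 in 38 cells under the same limit, and up to 9.25% by the exact interval. The differences between pre-ALT and post-ALT cells kept their sign without the 38 cells, at a log2 ratio of 0.84 for Hmgn2, -0.64 for Hmgn5, -0.71 for Hmga1, 0.33 for Hmgb1 and -0.22 for Hmgb2.

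**Figure D4:**
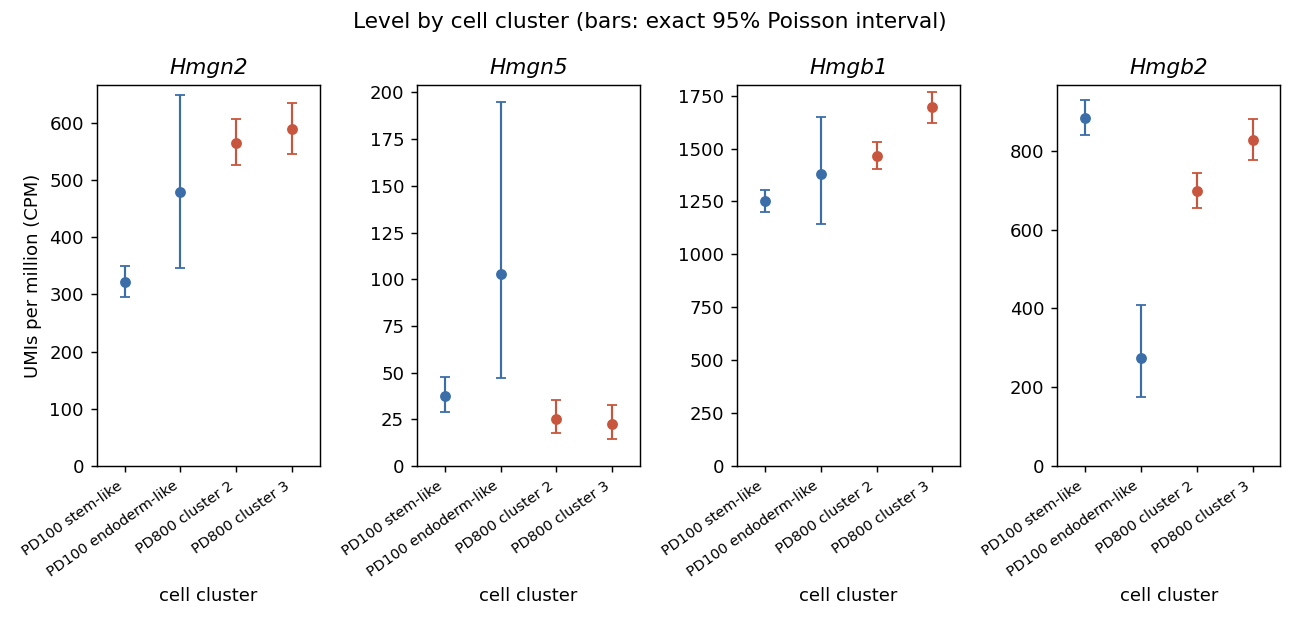
CPM of Hmgn2, Hmgn5, Hmgb1 and Hmgb2 in the stem cell-like and endoderm-like PD100 clusters (blue) and in the PD800 clusters 2 and 3 (red), with bars for the exact 95% Poisson interval and each axis starting at 0. Hmgb2 is lowest in the endoderm-like cells, and Hmgn2 is higher in both PD800 clusters than in the stem cell-like PD100 cells.

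Within PD800 the clusters were close to each other. Hmgn2 was 565 CPM (526 to 606) in cluster 2 and 588 CPM (546 to 633) in cluster 3. Hmgb1 was lower in cluster 2, at 1466 CPM (1403 to 1531) against 1694 CPM (1621 to 1769), and Hmgb2 was as well, at 698 CPM (655 to 744) against 827 CPM (777 to 880). The log2 ratios of cluster 2 over cluster 3 were -0.21 (-0.30 to -0.12) for Hmgb1 and -0.25 (-0.37 to -0.12) for Hmgb2. For the other 5 genes, and for Hmgn2, the interval included 0.

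Since Hmgb2 is tied to dividing cells, each library was also read by the summed thinned UMIs of 26 G2/M genes and of 20 S phase genes. Cells at or above percentile 75 of the G2/M sum had a mean of 0.909 Hmgb2 UMIs in PD100 and cells at or below percentile 25 had 0.869, a log2 ratio of 0.06 (-0.19 to 0.32). In PD800 the means were 0.773 and 0.673, a log2 ratio of 0.20 (-0.11 to 0.51). With the S phase sum Hmgb2 gave 0.28 (0.02 to 0.55) in PD100 and -0.21 (-0.49 to 0.08) in PD800, and the difference between libraries was not tested. The PD100 interval covers counting error only, while Hmgb2 had a variance over mean of 1.34 there, above pure counting. PD100 cells with any S phase UMI against the 31 without gave 0.20 (-0.39 to 0.87) for Hmgb2, so no relation is read from these values. Hmgb1 gave 0.15 (-0.07 to 0.36) in PD100 and 0.26 (0.06 to 0.46) in PD800 with the S phase sum. With the G2/M sum it gave -0.09 (-0.31 to 0.12) and 0.13 (-0.08 to 0.34). In PD800 Hmgb1 had a variance over mean of 1.29, and the interval covers counting error only. PD800 cells with any S phase UMI against the 80 without gave 0.25 (-0.03 to 0.55) for Hmgb1, so no relation is read here either. For Hmgn2 the interval included 0 with both sums in both libraries. Hmgb3 had 2 UMIs in the upper and 8 in the lower S phase range of PD800, a log2 ratio of -2.35 (-5.62 to -0.02), while in PD100 it had 8 and 3 UMIs, at 1.29 (-0.77 to 3.84), and with the G2/M sum it gave 1.08 (-0.82 to 3.26) in PD100 and 1.14 (-0.92 to 3.69) in PD800. These are ranges of a sum and not phases, since the median G2/M sum was 4 UMIs in both libraries and 111 PD100 cells and 125 PD800 cells lay exactly at the lower limit.

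To see how each gene stood against its region, it was set beside the 10 well-counted genes on either side of it. Hmgn5 went against most of the 20 well-counted genes nearest to it in order of position. The 20 genes around it (chromosome X, 104280657 to 134809221) had a median log2 ratio of 1.54, and 19 of the 20 lay above the median of all genes. This window is wide, with no well-counted gene between 112372755 and 133891068, so many of the 20 genes lie far from Hmgn5. Of these 20 genes 14 stood 2-fold or more higher after ALT and 0 as far lower, whereas on chromosome X as a whole 37 of 189 genes stood 2-fold or more higher. Hmgn5, at -0.75, had a higher ratio than only 1 of them, its neighbour Rps6ka6 (31 UMIs in PD100, 22 in PD800, log2 ratio -0.99, -1.85 to -0.16). On its other side 2810403D21Rik went from 119 to 1196 UMIs, a log2 ratio of 2.83 (2.56 to 3.11). Both neighbours are named here after their values were seen.

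Hmgn2 showed the opposite relation. Its 20 neighbours on chromosome 4 had a median log2 ratio of -0.63, none was at least 2-fold higher, and all 20 had a lower ratio than Hmgn2 at 0.81. Hmgb1, in contrast, moved as its region did. It lies 2.52 Mb from the last annotated base of chromosome 5, with 9 well-counted genes beyond it, and the 19 genes around it had a median of 0.59, of which 17 lay above the median of all genes and 6 had a lower ratio than Hmgb1. The 20 neighbours of Hmgb2 had a median of -0.78, those of Hmga1 -0.39, those of Hmgb3 -0.19 and those of Hmgn3 -0.03. For comparison, Hmgn1 lies 1.95 Mb from the last annotated base of chromosome 16, and the 12 genes around it had a median of 0.80. No DNA copy number was measured here. From whole-genome sequencing, the paper reports copy-number changes specific to PD800 at some chromosome ends. The ends of the chromosomes that carry Hmgb1 and Hmgn1 are among them. The paper describes the region of Hmgn1 as amplified in PD800 relative to an earlier post-ALT stage. Whether Hmgb1 and its neighbours lie within such a change was not tested.

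**Figure D5:**
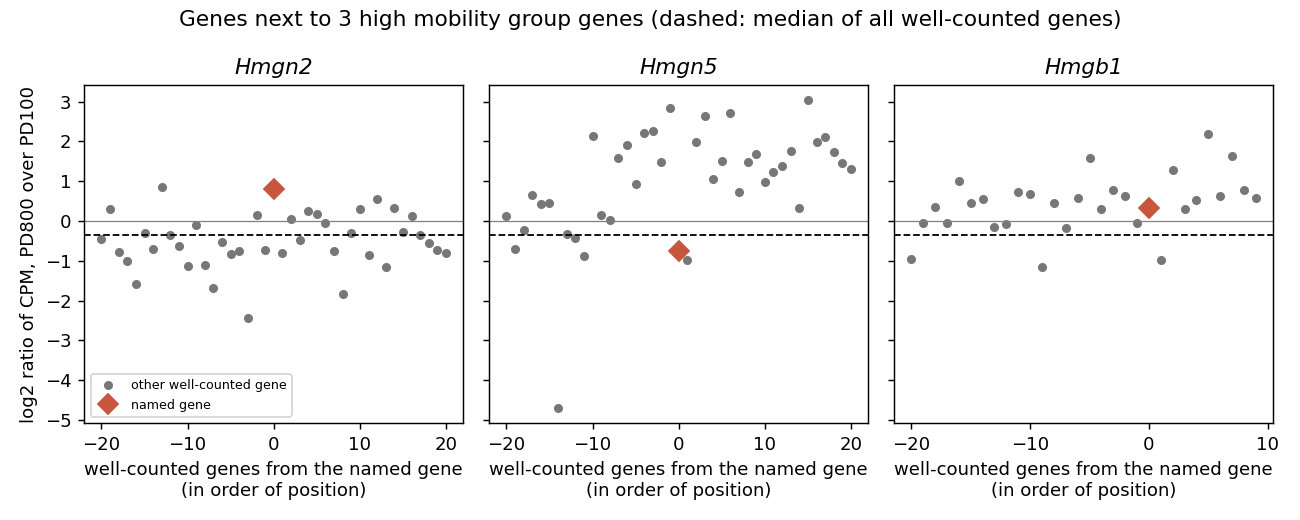
Log2 of the PD800 CPM divided by the PD100 CPM for Hmgn2, Hmgn5 and Hmgb1 (diamonds) and of up to 20 well-counted genes on either side in order of position (grey points), with a dashed line at -0.34 for the median of all well-counted genes. Hmgn5 lies below all but 3 of 40 genes, Hmgn2 above 39 of 40, and Hmgb1 above 11 of 29.

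These genes have many near-identical copies in the genome, which can share or take reads. GENCODE M21 held 122 genes with transcripts at least 90% identical to Hmgb1 over at least 200 bases, 121 of them pseudogenes, and 25 for Hmgn2, 14 for Hmgb3, 11 for Hmgb2, 4 for Hmgn1, 2 for Hmgn5 and 1 for Hmga2. Levels of genes with such copies are uncertain where the counting could split their reads. None of the Hmgb1 copies had a column in the tables. Of the copies with a column, Gm6594 had 51 UMIs in PD100 and 108 in PD800, Gm10282 had 12 and 28, and Gm20379 had 21 and 23, all beside 600 and 1486 for Hmgn2. Hmgn2 summed with its 4 copies that have a column gave a log2 ratio of 0.77. Tmx3, of which a retained-intron transcript is 90.7% identical to Hmgb2 over 929 bases, had 18 and 29 beside 1560 and 1957 for Hmgb2.

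Overlapping genes are a further limit, since the strand handling is not given. Hmga1 overlaps the protein-coding gene AI413582 on the opposite strand by 102 bases (57 and 108 UMIs), and Hmgb1 overlaps Uspl1 by 140 bases (90 and 64 UMIs).

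The other chromatin genes around this family are counted by library totals, by which 9.22% of all well-counted genes stood 2-fold or more higher and 16.9% lower, and then relative to the median gene, with 13.9% and 7.79%. Of 15 histone chaperone genes, all well counted, 0 were at least 2-fold higher and 1 at least 2-fold lower, with a median log2 ratio of -0.51. Relative to the median gene their median was -0.17 and 0 were 2-fold lower. By totals Asf1b, which hands H3 and H4 to the replication fork, was at -1.01 (-1.34 to -0.69), its paralog Asf1a at -0.94 (-1.22 to -0.66), and Ssrp1, the HMG-box subunit of the FACT complex, at -0.82 (-1.01 to -0.63). Of 20 other HMG-box genes 13 were well counted, 0 higher and 5 lower by the 2-fold rule, with a median of -0.61, and relative to the median gene 3 were lower, with a median of -0.27. Among them Hmgxb4, an HMG-box protein, stood at 107 UMIs before ALT and 24 after it, with a log2 ratio of -2.66 (-3.36 to -2.01). Sox15 was at -1.73 (-2.30 to -1.18) and the chromatin remodelling subunit Smarce1 at -1.36 (-1.71 to -1.01). The other two past 2-fold by totals, named after their values were seen, were Tfam at -1.12 and Ubtf at -1.06. Only 3 of 9 linker histone genes were well counted, none past 2-fold in either direction, and H1f0, the replacement linker histone, stood at 100 UMIs before ALT and 185 after it, with a log2 ratio of 0.39 (0.03 to 0.75). H1fx was at 0.27 (-0.36 to 0.93) and Hist1h1b at -0.46 (-0.95 to 0.03).

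Of 11 genes of the let-7 and Hmga2 pathway 7 were well counted, with a median of -0.10. By totals 0 of them were at least 2-fold higher and 1 at least 2-fold lower. Relative to the median gene their median was 0.24 and 0 were past 2-fold in either direction. The named genes were mRNA-binding proteins known to bind such targets, Igf2bp3 at -1.07 (-1.73 to -0.42) and Igf2bp1 at -0.75 (-0.96 to -0.55), while Igf2bp2 was at -0.10 (-0.77 to 0.57). The rest, named after their values were seen, were Zcchc11 at 0.57, Dicer1 at 0.39, Ago2 at 0.08 and Trim71 at -0.38. Their intervals all included 0. The 26 G2/M genes had a median of -0.39 and the 20 S phase genes one of -0.52, against -0.34 for all genes, with 1 and 0 at least 2-fold higher and 2 and 3 at least 2-fold lower. Relative to the median gene 0 genes of either list were 2-fold lower. Of all well-counted genes 9.22% were 2-fold higher and 16.9% lower by totals, and 13.9% and 7.79% relative to the median gene. Mki67 was the G2/M gene past 2-fold higher, with 31 and 143 UMIs (log2 ratio 1.71, 1.14 to 2.32), and the 2 past 2-fold lower were Ckap2 (-1.01) and Kif11 (-1.01), the latter named after its value was seen. Cdk1 was at -0.79. By library totals 6 G2/M genes had an interval above 0 and 14 one below. The share of all genes by this rule is not given here, and the median gene itself lay below 0. No result is read from these counts. Of the S phase list Mcm5 (-1.32), Mcm3 (-1.29) and Cdc6 (-1.18) were the named genes, all with intervals below 0. Hmgb2, at -0.17, lay above the medians of both lists.

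Across cells the likeness between genes was weak. Among the 1382 other genes with a mean of at least 0.1 thinned UMIs per cell in both libraries, the highest mean correlation with Hmgb1 was 0.087 (Hsp90aa1, a chaperone), followed by Hmgb2 at 0.081 and Rtfdc1 at 0.075. For Hmgn2 the closest were Ciapin1 at 0.077, Cirh1a at 0.076 and Snrnp40 at 0.076. For Hmgb2 they were Hmgb1, Rpl10a at 0.081 and Chrac1 at 0.0796. Hmgn2 and Hmgb1 had a correlation of 0.0044 in 814 PD100 cells and -0.034 in 900 PD800 cells. In counts this sparse, values of this size are a description of cells that share a library and a depth, and no relation is read from them.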

How the data were processed

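Single-cell RNA was captured with inDrops and sequenced by the authors, who counted UMIs per gene and barcode with the inDrops pipeline against a transcriptome built from GRCm38/mm10 and analysed the matrix in Scanpy. The deposited tables hold raw counts of UMIs, not normalized, with cells in rows and 38458 gene columns; all columns were read. Strand handling was not given in the sources used here.

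Cells with at least 1000 UMIs and at most 20% mitochondrial UMIs were kept and UMIs were summed per library. All intervals are exact, at 95%, and cover counting error alone (Poisson for CPM, Clopper-Pearson for shares and, conditional on a gene's total, for ratios). Ratios were compared over genes with 50 UMIs or more in all. A limit for a count of 0 is 3 counts. Thinning used seed 1. Clusters were made with Scanpy 1.11.5 (80 principal components, 15 neighbours, Louvain) without the high mobility group genes and their copies. Scrublet at an expected 5% marked 14 PD100 and 8 PD800 cells as doublets, which were kept in the main values. Copies were found with BLAST 2.17.0, and positions and coding sequences come from GENCODE M21 (GRCm38). A further result on copies is not reported here, and the alternative with copies was computed without it, for 7 of the 8 genes. The functions were tested on simulated data.

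The 8 genes and all gene lists were chosen with earlier results of these data known, and no test was run on them. Of each list at most 3 genes were named, those whose interval end nearer to no difference lay farthest from it, so that a wide interval across no difference could qualify, with the 3 genes most correlated with a member and the copies with at least 10 UMIs.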

Additional observations from a re-analysis of the deposited data

Results flagged for a closer look

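Barcodes below the filter were not part of the comparison but held signal of these genes, above the 3 counts that could go unseen in either library, and that is why they are given. The 477 PD100 barcodes left out held 246800 UMIs and the 766 PD800 barcodes 458381 UMIs. In them the log2 ratio of PD800 over PD100 was 0.59 (0.23 to 0.95) for Hmgn2 from 89 and 248 UMIs, against 0.81 in the cells kept. Hmgb1 had 263 and 603 UMIs and a log2 ratio of 0.30 (0.09 to 0.52), against 0.32. Hmgb2 had 217 and 306 UMIs and a log2 ratio of -0.40 (-0.65 to -0.14), against -0.17. Hmga1 had 14 and 10 UMIs and a log2 ratio of -1.38 (-2.71 to -0.10), and Hmgn5 had 7 and 13 UMIs and a log2 ratio of -0.00012 (-1.43 to 1.57). Hmgn3 had 1 and 13 UMIs there, and Hmga2 and Hmgb3 had 0 in PD100 against 5 and 10 in PD800.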

How the results depend on the processing

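Over 10 alternatives each (9 for Hmga1), Hmgn2, Hmgn3, Hmgb1 and Hmgb3 stayed higher in PD800 and Hmgn5 and Hmga1 lower, while Hmga2 turned positive in 2 of 10 (0.13 with median-of-ratios scaling, 0.28 over every barcode). Hmgb2 turned to 0.17 with median-of-ratios scaling, which shifts all genes alike; with that scaling Hmgn2 was at 1.15, Hmgb1 at 0.66, 1 gene was at least 2-fold higher and the median of all genes was -0.00040. That median was -0.29 without mitochondrial UMIs, -0.28 also without ribosomal protein genes, -0.27 at a minimum of 200 UMIs and -0.47 for genes with at least 1 UMI in each library. The share of cells was higher in PD800 for 5 of the 8 genes, Hmgb2 among them, and for 3 after thinning to 2000 UMIs. It was higher for 4 with another seed, at a lower thinning depth and by the mean over all draws, and for 6 without thinning. The same count over all genes is not given here, so no result is read from these counts. The variance over the mean was higher in PD100 for 3 of 3 genes and for 1 without thinning. With another seed or at 2000 UMIs it was higher there for 2, so no order of the libraries is read from it. Cells with any G2/M UMI against the 14 PD100 and 39 PD800 cells without gave -0.78 (-1.78 to 0.45) for Hmgn2 and -0.79 (-1.31 to -0.21) for Hmgb1 in PD100 and -0.57 (-1.08 to -0.0022) for Hmgn2 in PD800. Any S phase UMI (31 cells without) gave -0.74 (-1.45 to 0.06) for Hmgn2 in PD100. The cause was not tested. The neighbours of Hmga1 had a median of 0.15 with 5 genes on either side, against -0.39, and Hmgb2 by G2/M in PD100 went from 0.06 to -0.01. Both stayed within the interval of the main value, as did, within that interval or 1.5 times a count, 141 values in all. Leaving out the cells with shared barcodes was added after the data were seen. No paired analysis was possible because each group has 1 library. Depth limits Hmgn3, Hmgb3 and Hmga2, whose ratios by library totals cannot be told from no difference.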
